A study of Mus musculus with 8 samples.

Results

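Small nucleolar RNAs (snoRNAs) and small Cajal body RNAs (scaRNAs) were taken as every row of the deposited ribosome profiling table whose transcript biotype is snoRNA or scaRNA. This gave 1536 of 109463 transcript rows, 1493 of snoRNA and 43 of scaRNA biotype. By name, 87 were box C/D snoRNAs (Snord and Rnu3 names), 39 were box H/ACA snoRNAs (Snora names), 45 were scaRNAs (Scarna names or the scaRNA biotype, so that Scarna9 and Scarna10 were counted here although the table calls them snoRNAs), and 1365 had other names, 1343 of them predicted genes with Gm numbers that do not tell the box class. All 87 box C/D and all 39 box H/ACA rows had at least 1 read, against 27 of 45 scaRNAs and 582 of 1365 rows with other names. In all, 735 rows had a read, 552 had 10 or more over the 8 libraries and 152 had 100 or more, while 801 had none.

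The study profiled ribosome-protected fragments from the brain of mice at postnatal day 5 of the 'Taiwanese' model of severe spinal muscular atrophy (SMA), on the FVB background, in which a human SMN2 transgene replaces the lost mouse Smn gene. Smn+/-; SMN2tg/0 brains gave 3 libraries from SMN immunoprecipitates and 1 from an IgG immunoprecipitate, and the labels call these brains controls. The 2 RiboLace libraries, made by capturing active ribosomes, and the 2 polysome libraries, made from sucrose gradient fractions, came from Smn-/-; SMN2tg/0 brains, called early symptomatic. All 8 libraries therefore carried the SMN2 transgene, and genotype and protocol differed together between the immunoprecipitates and the other libraries, so that they cannot be told apart there; RiboLace and polysomes shared a genotype. For the immunoprecipitates the labels describe RNase I digestion of a lysate cleared of debris, nuclei and mitochondria, and pelleting of ribosomes before the antibody step.

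As background, snoRNAs are short noncoding RNAs that in mammals are mostly cut from the introns of host genes and work in the nucleolus as ribonucleoproteins. Box C/D snoRNAs hold a box C and a box D and bind fibrillarin, Nop56, Nop58 and Nhp2l1, and most guide ribose methylation. Box H/ACA snoRNAs bind dyskerin, Gar1, Nhp2 and Nop10, and most guide pseudouridylation. A few, such as U3, U8, U14, U22 and the Snora73 RNAs, are needed for cleavage of the ribosomal RNA precursor, and scaRNAs guide modification of spliceosomal RNAs in Cajal bodies, where the SMN protein is also found. None of these RNAs has an annotated coding region.

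Sequences could be read for 5 of the rows, those that RefSeq also lists as microRNA genes; the 4 with reads are shown here, because small RNAs from these loci are entered under a second name. The RefSeq entries are microRNA hairpins of 147 bases for Gm24148, 78 for Mir677, 73 for Mir1839 and 79 for Mir3068, while the table's rows are 80, 72, 127 and 136 bases long, so that an entry and its row do not span the same bases and a motif may lie outside the row or be missed in it. The sequences are RefSeq's (GRCm38.p6), 5′ to 3′ as RNA, with each UGAUGA (a box C core) and CUGA (a box D) in capitals; only the transcribed strand was searched, and the motifs can overlap.
Gm24148 (mmu-miR-3535), chr1:86351981-86352127, minus strand: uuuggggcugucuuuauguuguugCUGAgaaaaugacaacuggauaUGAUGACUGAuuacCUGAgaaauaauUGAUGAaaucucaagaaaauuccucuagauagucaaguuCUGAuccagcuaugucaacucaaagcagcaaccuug
Mir677, chr10:128085286-128085363, plus strand: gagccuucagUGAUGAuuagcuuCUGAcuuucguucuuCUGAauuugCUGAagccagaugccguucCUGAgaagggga
Mir1839 (scaRNA biotype), chr7:81529916-81529988, plus strand: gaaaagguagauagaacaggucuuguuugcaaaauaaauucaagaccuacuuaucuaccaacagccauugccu
Mir3068, chr12:87437679-87437757, minus strand: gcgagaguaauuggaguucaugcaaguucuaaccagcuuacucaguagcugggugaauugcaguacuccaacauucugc
The entries of Gm24148 and Mir677 held a UGAUGA followed by a CUGA, an order found in 0.502% of the 997 mouse hairpins of the RefSeq table, and those of Mir1839 and Mir3068 held neither motif. UGAUGA alone was in 2.51% of these hairpins and CUGA in 42.8%. Gm24148, which lies within the nucleolin gene Ncl, had 12, 9 and 21 reads in the SMN immunoprecipitates, 27 with IgG, 0 and 1 with RiboLace and 4 and 4 on polysomes. Mir1839 had 11 and 5 reads with RiboLace, whose libraries are the shallowest, 7, 5 and 22 with SMN, 12 with IgG and 1 and 4 on polysomes. Mir1839 was higher with RiboLace than on polysomes by 6.79 on the log2 scale (edgeR, adjusted p = 1.79e-20). Mir677 had 3, 2 and 7 reads with SMN, 9 with IgG, 0 and 0 with RiboLace and 0 and 11 on polysomes. Mir3068 had 2, 12 and 20 reads with SMN, 26 with IgG, 0 and 3 with RiboLace and 3 and 12 on polysomes. Gm24148 and Mir3068 had too few RiboLace reads to enter that test, and both were higher with SMN than on polysomes (by 5.30 and 4.14, edgeR, adjusted p = 2.31e-07 and 7.51e-05).

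Depth set the precision of every value. Over 1 row per gene plus every snoRNA and scaRNA row, the SMN libraries held 190198 to 350023 reads, the IgG library 322626, the RiboLace libraries 58985 and 69852, and the polysome libraries 1851465 and 2548966. Of these, 6541 to 15062, 16853, 1281 and 1609, and 3814 and 5129 fell on the snoRNA and scaRNA rows. A count of 3, the upper limit that a count of 0 allows, stood for 50.9 CPM (reads scaled to a library of 1000000) in the shallower RiboLace library and 1.18 in the deeper polysome library. Neuron markers were read in every library, with summed levels of 4344 to 6585 CPM. Of these, 2 of 6 were higher than polysomes with SMN and 2 of 6 with RiboLace (edgeR, adjusted p under 0.05), and 0 were lower. Other cell types differed between groups. The 5 oligodendrocyte lineage markers summed to 246 to 568 CPM with SMN, 127 with IgG, 458 to 558 with RiboLace and 614 to 739 on polysomes. By the same test 0 of 5 were called with SMN or with RiboLace. The 5 microglia markers summed to 85.4 to 195, 68.2, 157 to 169.5 and 279 to 286 CPM in the same order, 2 of 4 tested being lower with SMN. The 5 blood markers summed to 1172 to 1554, 1076, 3608 to 4255 and 1714 to 2332 CPM, and 4 of 5 were higher with RiboLace than on polysomes. With RiboLace, 1 of 5 astrocyte or radial glia markers, 1 of 1 liver and 1 of 1 skeletal muscle markers tested were also higher. Endothelium markers had 0 calls with SMN or RiboLace. Beside these calls, 5.59% of all features were higher and 4.53% lower with RiboLace. With SMN 21.4% of all features were higher and 15.7% lower. For IgG, with 1 library, effect sizes alone are given. The median log2 difference from polysomes was -1.83 for oligodendrocyte lineage, -1.61 for microglia and -0.73 for blood markers. It was -0.56 for astrocyte or radial glia, -0.35 for neuron and 0.18 for endothelium markers, against -0.15 over all features. The part of cell types in the results was not tested. Smn1 had 22, 13 and 34 reads with SMN, 6 with IgG, 2 and 0 with RiboLace and 51 and 77 on polysomes, a count over the whole transcript that does not check the deleted part. SMN replicate 2 stood apart from the others: its counts on these rows differed from replicates 1 and 3 by a chi-square of 2.58 and 2.77 per row, against 1.07 between replicates 1 and 3. On the same rows the chi-square was 0.462 per row for the RiboLace pair and 0.571 for the polysome pair, less than independent reads would give. The reason was not tested. The RiboLace pair differed by 1.04 per feature over all features (chi-square test, p = 0.0733) and 1.05 over coding features (p = 0.0491), close to sampling noise. The RiboLace libraries were kept as 2 samples, as labelled, and values with each left out are given.

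The first question was how much of each library these RNAs made up. Their share was 3.80% ± 0.509 (SD, n = 3) with SMN, 5.22% with IgG, 2.24% ± 0.0931 (n = 2) with RiboLace and 0.204% ± 0.00338 (n = 2) on polysomes. The polysome libraries were the lowest and the IgG library the highest, and no groups overlapped. Relative to polysomes the share was 18.7 times as high with SMN, 25.7 times with IgG and 11.0 times with RiboLace, and the SMN share was 0.727 of the IgG share. An exact permutation test of 3 against 2 libraries cannot go below p = 0.1, so no test is given for shares. Other noncoding rows were also lowest on polysomes, but in more than one order among the rest. The snRNAs took 10.5% of reads with SMN, 13.1% with IgG, 7.47% with RiboLace and 0.356% on polysomes. RiboLace was instead the highest for rows of miRNA biotype (0.699%, 0.824%, 1.94% and 0.0746% in the same order), misc_RNA (0.754%, 0.859%, 1.11% and 0.0209%) and ribozyme (0.154%, 0.109%, 0.553% and 0.0111%). Coding rows took 67.0%, 61.9%, 65.7% and 87.4%.

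Box C/D rows took 0.689% ± 0.0741 of reads with SMN, 0.956% with IgG, 0.190% ± 0.00921 with RiboLace and 0.0435% ± 0.00192 on polysomes. Box H/ACA rows took 0.304% ± 0.115, 0.342%, 0.0836% ± 0.00887 and 0.0110% ± 0.000972 in the same order. For both classes RiboLace lay below all 4 immunoprecipitates and above polysomes. The scaRNAs took 0.146% ± 0.0483 with SMN, 0.183% with IgG, 0.284% ± 0.00317 with RiboLace and 0.0135% ± 0.000231 on polysomes. Both RiboLace libraries, at 0.282% and 0.287%, lay above the highest SMN library at 0.198%, as they also did for the miRNA, misc_RNA and ribozyme rows. In the RiboLace libraries 70.6% and 70.4% of the scaRNA reads lay on 5 rows, Scarna8, Gm26083, Gm23751, Scarna10 and Scarna6, picked after their values were seen. Without them the other scaRNAs took 0.0830% and 0.0848% with RiboLace, 0.0818% to 0.156% with SMN and 0.153% with IgG, so that RiboLace no longer lay above all immunoprecipitates. Of all snoRNA and scaRNA reads, scaRNAs made up 12.2% and 13.2% with RiboLace, 3.10% to 5.19% with SMN, 3.51% with IgG and 6.63% in each polysome library.

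**Figure D1:**
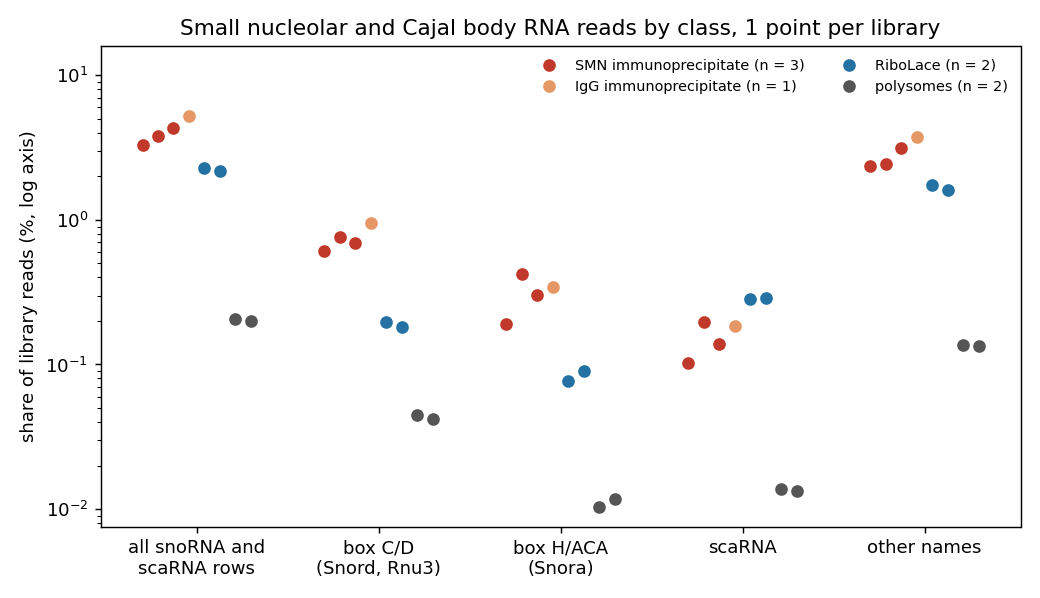
Share of library reads (percent, log axis) on all snoRNA and scaRNA rows and on each class, 1 point per library, coloured by group. Polysomes are lowest in every class, at 0.204% on average for all rows, and among the named classes RiboLace is highest for scaRNAs, at 0.284%.

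Much of the signal lay in copies whose reads cannot be assigned to 1 locus. Per length, the 10 most abundant rows, by the mean over groups of reads scaled to length and depth, were U3 copies and rows of 94 bases. The 7 U3 rows (Rnu3a, Rnu3b1 to Rnu3b4, U3.2 and ACEA_U3.1) are 214 to 216 bases long, and U3 guides the early cuts that release the small-subunit ribosomal RNA. Rnu3b3, the most read, reached 648, 683 and 660 CPM with SMN, 1057 with IgG, 243 and 186 with RiboLace and 35.6 and 33.3 on polysomes. Its 3 SMN values differed by little, IgG lay above them, and RiboLace lay between SMN and polysomes. Rnu3b1 to Rnu3b4 had nearly the same count in each library, with a variance over mean of 0.014 to 0.553, less than independent reads would give. The sources used here do not say how reads matching several rows were counted, so a sum over copies may hold a read more than once, and counting intervals, SEs and p-values for copies, single or summed, treat shared reads as independent.

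The other copies lay within Snhg14, the long noncoding host of the imprinted region between Snrpn and Ube3a in which the Snord116 and Snord115 clusters are known to lie; loss of the paternal Snord116 copies is tied to Prader-Willi syndrome. RefSeq's gene order placed 53 rows of 92 to 94 bases there, Snord116l1 and Snord116l2 among them, and 133 rows of 78 or 79 bases nearer to Ube3a. A further 17 rows of 94 bases are not in RefSeq and had like counts; they are kept outside these groups. The 53 longer rows together had 1685, 1192 and 3692 reads with SMN, 3867 with IgG, 697 and 500 with RiboLace and 754 and 906 on polysomes. The 133 shorter rows had 1038, 946 and 2737 reads with SMN, 2754 with IgG, 44 and 38 with RiboLace and 467 and 721 on polysomes. The immunoprecipitates and the polysomes thus held the clusters in like proportion, and RiboLace did not: the longer rows had 1.62, 1.26 and 1.35 times the reads of the shorter with SMN, 1.40 with IgG, 1.61 and 1.26 on polysomes, and 15.8 and 13.2 with RiboLace. This ratio within a library does not depend on scaling between libraries, and the RiboLace values lay apart from the other 6.

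As shares, the longer rows took 0.843% ± 0.214 with SMN, 1.20% with IgG, 0.923% ± 0.106 with RiboLace and 0.0381% ± 0.00366 on polysomes, so that RiboLace reached the level of the immunoprecipitates. The shorter rows took 0.600% ± 0.158, 0.854%, 0.0637% ± 0.00101 and 0.0268% ± 0.00217. The U3 rows took 0.389% ± 0.00671, 0.613%, 0.0950% ± 0.0216 and 0.0200% ± 0.00034. With each group of copies summed to 1 feature and fitted among all features (edgeR's quasi-likelihood test), RiboLace was higher than polysomes by 4.76 on the log2 scale for the longer rows, by 2.42 for U3 and by 1.40 for the shorter rows. The SMN immunoprecipitates were higher than polysomes by 4.94, 4.76 and 4.96 for the same 3 groups and the IgG library by 5.46, 5.42 and 5.48, and each of these 9 differences passed an adjusted p of 0.05. If reads were counted on several copies, these tests count the same read repeatedly and their p-values are too small by an unknown amount, so they are not printed. SMN minus IgG was -0.52, -0.66 and -0.52 on the log2 scale, none past the test.

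**Figure D2:**
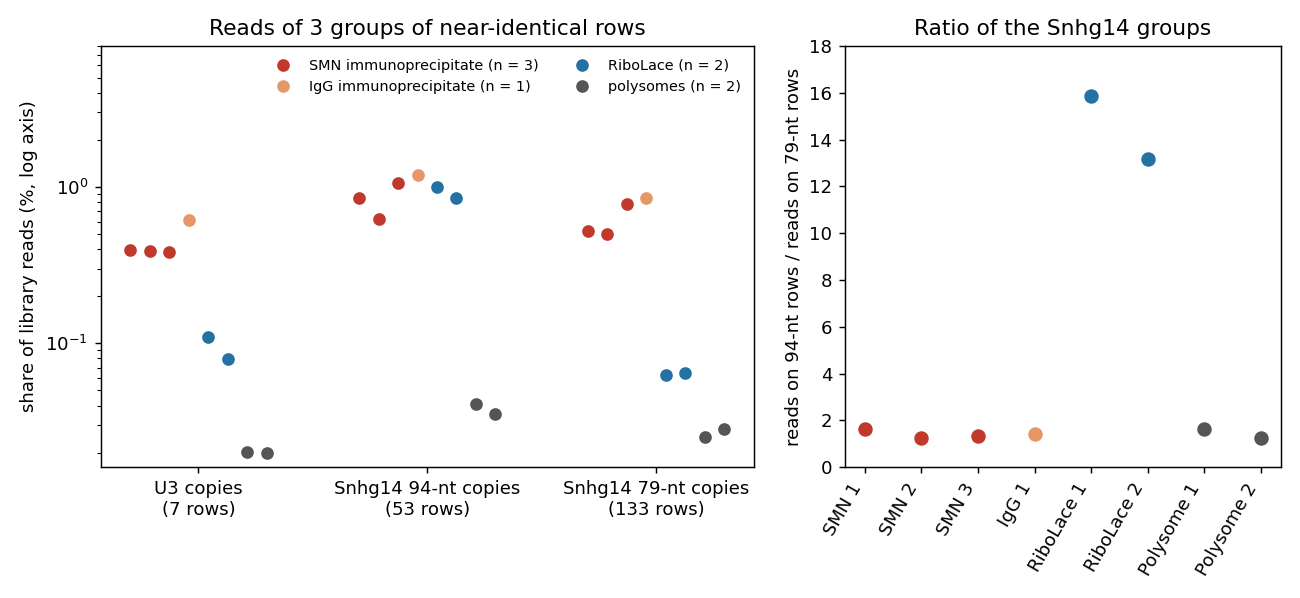
Left, share of library reads (percent, log axis) on the U3 rows and the longer and shorter Snhg14 rows, 1 point per library; right, reads on the longer Snhg14 rows divided by reads on the shorter ones, per library. The ratio is 15.8 and 13.2 with RiboLace and 1.26 to 1.62 in the other 6 libraries.

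The comparison of RiboLace with polysomes asks, at 1 genotype, how captured active ribosomes differ from ribosomes sedimented as polysomes. By edgeR's quasi-likelihood test over 13367 features, 117 of the 152 snoRNA and scaRNA rows tested were higher with RiboLace at a Benjamini-Hochberg adjusted p under 0.05 and 0 were lower, beside 5.59% of all features called higher and 4.53% called lower. At an unadjusted p under 0.05, 127 were higher and 0 lower, and DESeq2 called 121 and 0. The median log2 difference of the tested rows was 4.47, against -0.34 over all features. With library totals in place of TMM scaling that background median was -0.49, all features split into 715 higher and 1060 lower in place of 747 and 605, and 116 of these rows were higher and 0 lower. The filter on low counts favours rows that are high with RiboLace; with no filter, 125 of 605 rows were higher and 0 lower. The count was 62 of 95 with the copies summed and 51 with limma-voom.

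A set chosen on polysome reads alone does not carry that filter. Of 128 rows with at least 10 reads in each polysome library, 60 lay outside the copy groups and the 17 unplaced rows of 94 bases. In these 60 the RiboLace level was above the polysome level in 52, though 22 of the 52 rested on 3 RiboLace reads or fewer over both libraries; the median ratio was 3.52, and the SMN and IgG levels were above it in 60 of 60, with medians of 8.67 and 11.9. The 8 rows at or below polysomes with RiboLace were Snord67, Gm25117, Gm22009 and, with 0 RiboLace reads, AF357399, Snord23, Gm25835, Gm22748 and Snord55. The same counts over all features chosen on polysome reads were not made. Over all features kept by the filter, with TMM scaling, 4818 of 13367 lay above polysomes with RiboLace. With SMN these were 4286 of 9119 and with IgG 7450 of 16672. By class the median RiboLace ratio was 2.81 over 19 box C/D rows, 5.85 over 5 box H/ACA rows and 6.52 over 8 scaRNAs. For the same rows the medians were 10.4, 9.34 and 6.70 with SMN and 13.3, 9.06 and 9.06 with IgG. The RiboLace median thus lay below both immunoprecipitates in every class, but for scaRNAs it was close to SMN and rows went both ways. Gm25492, Gm22442, Scarna3a and Scarna10 were higher with RiboLace than with both immunoprecipitates. Scarna13 was higher than with SMN only (7.61 against 7.25), and Gm22009, Scarna2 and Gm25395 were lower than both. Of the box H/ACA rows, Snora20 and Snora64 lay above both and the others below.

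**Figure D3:**
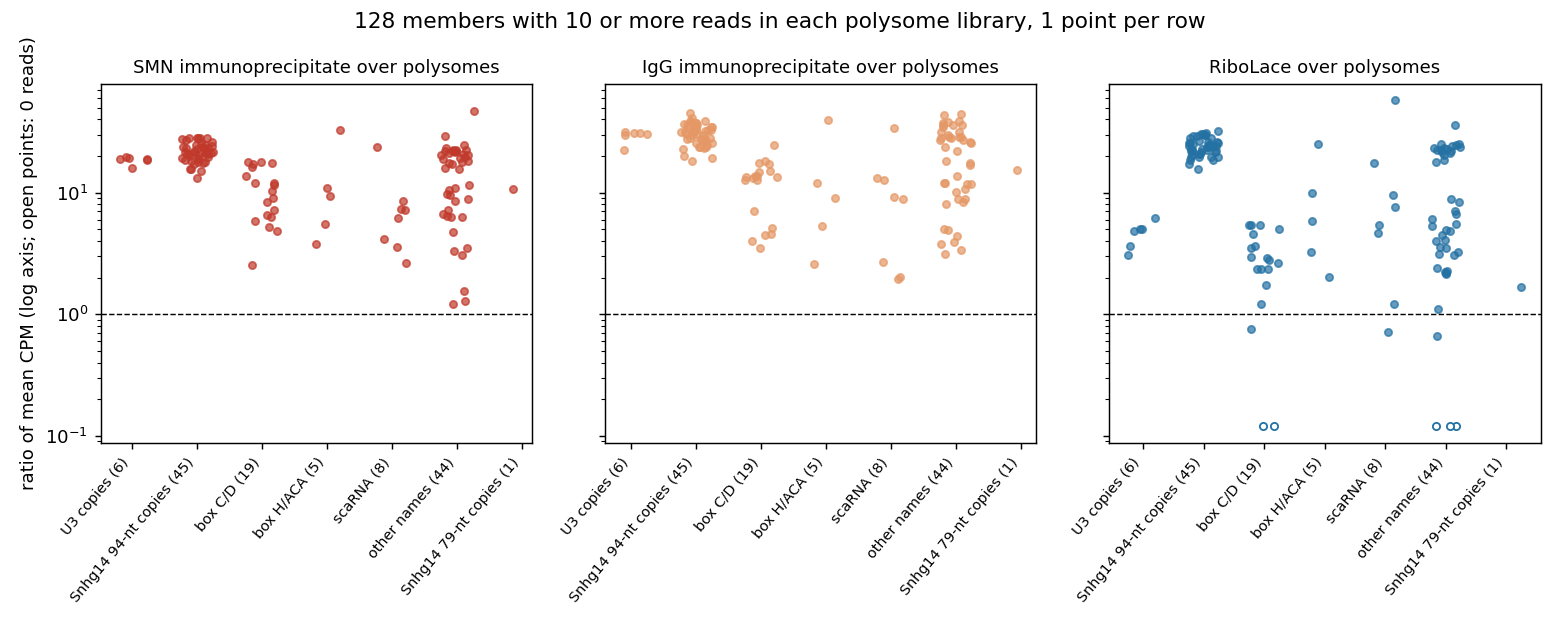
Ratio of mean CPM over polysomes (log axis) for the 128 rows with 10 or more reads in each polysome library, 1 point per row, by copy group or class, with the number of rows in brackets; the dashed line is 1 and open points had 0 reads. With SMN and IgG all 128 points are above 1; with RiboLace 120 are, and the box C/D rows outside the copy groups reach at most 5.43.

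Among scaRNAs, 10 of the 12 tested were higher with RiboLace than on polysomes, beside 5.59% of all features, and they led the list. Only 12 of 45 scaRNA, 25 of 87 box C/D and 9 of 39 box H/ACA rows passed the filter. Because the filter favours rows that are high with RiboLace, these and the following counts by class are not shares of a class. Scarna8, a guide for the U2 spliceosomal RNA, had 501 and 543 CPM with RiboLace, 0.54 and 1.18 on polysomes, 5.02, 73.6 and 17.1 with SMN and 9.30 with IgG. The RiboLace libraries held 35 and 32 of its reads and the much deeper polysome libraries 1 and 3, a log2 difference of 9.14 (SE 0.47, adjusted p = 1.65e-81, edgeR). RiboLace also lay above all 4 immunoprecipitates for this RNA, and SMN replicate 2 lay above the other 2 SMN replicates.

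Gm26083 and Gm23751, scaRNA rows known by number, had 372 and 475 CPM and 429 and 305 CPM with RiboLace against 0.54 and 1.96 and 2.70 and 1.57 on polysomes (log2 differences of 8.30, adjusted p = 2.40e-67, and 7.58, adjusted p = 2.76e-58, edgeR). Scarna10, the U85 RNA that guides both kinds of modification on the U5 spliceosomal RNA, had 415 and 407 CPM with RiboLace, 7.56 and 6.67 on polysomes, 40.2, 47.3 and 68.6 with SMN and 93.0 with IgG (RiboLace minus polysomes 5.99, SE 0.40, adjusted p = 9.36e-48). It lies within Ncapd2, whose retained-intron row differed by a like ratio, 73.0 against 57.8 for Scarna10, and reads of these rows cannot be told apart. Scarna6 had 272 and 288 CPM with RiboLace and 3.24 and 5.10 on polysomes (log2 difference 6.13, adjusted p = 2.73e-38, edgeR). For each of these 5 scaRNAs both RiboLace libraries lay above every immunoprecipitate.

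Scarna2, Gm22009 and Scarna17 each had 4 RiboLace reads or fewer in a library. Scarna2, which guides methylation of the U2 RNA and is the most read scaRNA on polysomes, had 57.3 and 50.9 CPM with RiboLace, 45.9 and 43.2 on polysomes, 196, 389 and 237 with SMN and 397 with IgG. RiboLace minus polysomes was 0.44 on the log2 scale (SE 0.62, adjusted p = 0.756, edgeR), from 4 and 3 RiboLace reads, while SMN and IgG were higher than polysomes by 3.04 (adjusted p = 6.74e-07) and 3.63 (adjusted p = 2.38e-16). Gm22009, the row of 343 bases within Kpna4, had 1 and 0 RiboLace reads against 38, 52 and 85 with SMN and 110 with IgG. Scarna17 had 0 RiboLace reads in both libraries and 12, 14, 29 and 39 in the immunoprecipitates. A level of up to 50.9 CPM can give 0 reads in the shallower RiboLace library, which covers the polysome level of all 3.
Scarna13, a tandem guide, and Scarna3a were higher with RiboLace than on polysomes by 3.10 and 4.26 (adjusted p = 9.0e-07 and 1.53e-13, edgeR) but were not called with limma-voom (adjusted p = 0.0836 and 0.0548), and Scarna3b had 5 and 4 RiboLace reads and was not tested. Scarna3a and Scarna3b are related sequences whose reads may be shared.

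Of the box C/D rows, 12 of 25 tested were higher with RiboLace, and no difference between classes was tested. These were 6 rows of the copy groups (Rnu3b1 to Rnu3b4, Snord116l1 and Snord116l2) and Snord50a, Snord50b, Snord65, Snord83b, Snord87 and Snord89, which lay 2.34 to 2.96 above polysomes on the log2 scale, Snord89 from 3 and 2 RiboLace reads (adjusted p = 0.0498, edgeR). Rnu3b3 was higher by 2.81 (SE 0.40, adjusted p = 1.63e-10, edgeR, and 0.0673 with limma-voom), while Rnu3a, with 3 and 6 RiboLace reads, was at 1.70 (SE 0.66, adjusted p = 0.0823, and 0.0151 with DESeq2). Snord118 (U8), needed for the large-subunit ribosomal RNA, had 1 and 1 RiboLace reads and 20 and 18 polysome reads, and Snord13 (U13) had 2 and 1 against 9 and 14; neither passed the test (adjusted p = 0.690 and 0.181, edgeR). Snord22 (U22) had 14.3 and 50.9 CPM with RiboLace and 15.7 and 11.8 on polysomes, and did not pass (adjusted p = 0.375). Snord87 was called higher (2.59, adjusted p = 0.00451, edgeR), but not without either RiboLace library (adjusted p = 0.143 and 0.170) nor with limma-voom (adjusted p = 0.0815).

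Of the box H/ACA rows, 7 of 9 tested were higher with RiboLace. Snora64, a guide for the large-subunit ribosomal RNA, had 172 and 153 CPM with RiboLace, 5.94 and 7.06 on polysomes, 35.1, 84.1 and 62.9 with SMN and 58.9 with IgG (RiboLace minus polysomes 4.75, SE 0.52, adjusted p = 2.53e-18, edgeR). Snora65 was called (5.66, adjusted p = 4.56e-11), but its RiboLace libraries had 1 and 9 reads and limma-voom did not call it (adjusted p = 0.129). Snora81 had 3 and 4 RiboLace reads (2.61, adjusted p = 0.00608) and was not called without RiboLace replicate 1 or replicate 2 (adjusted p = 0.130 and 0.319). The Snora73 RNAs, which act in small-subunit processing, and Snora74a had at most 1 RiboLace read in a library. Gm25776, a row of 143 bases within Gtf2a1 with no class in its name, was second to Scarna8 in the whole group, with 501 and 526 CPM with RiboLace and 1.08 and 1.57 on polysomes (8.59, adjusted p = 4.32e-78, edgeR). Outside the copy groups, the 10 most read rows held 31.0% and 30.0% of the snoRNA and scaRNA reads with RiboLace and 12.8% to 15.8% in the other 6 libraries.

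**Figure D4:**
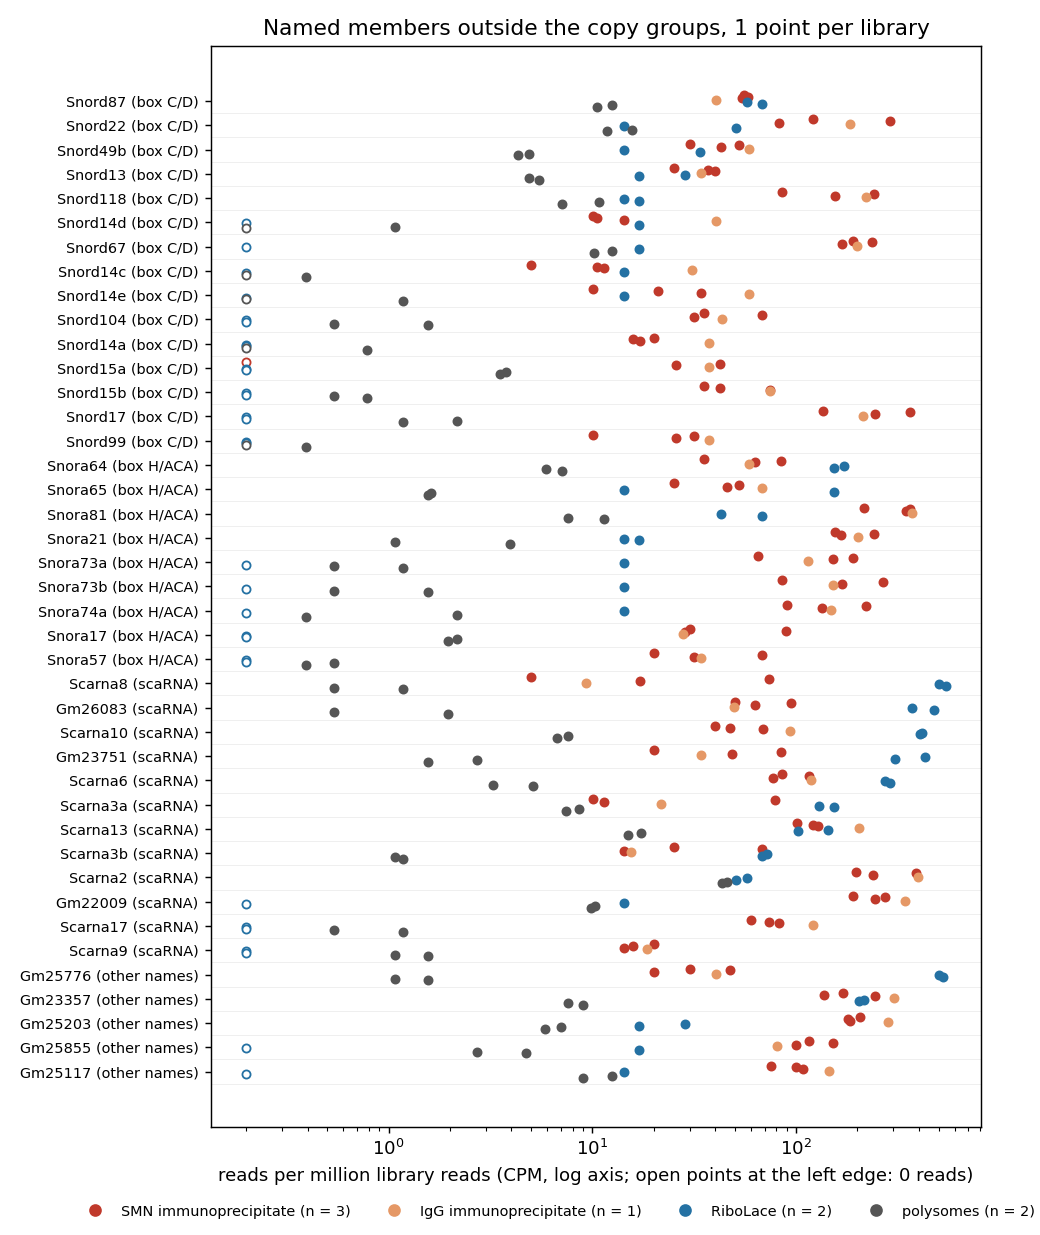
CPM (log axis) of the named rows outside the copy groups, 1 point per library, by class and then by mean RiboLace level; open points at the left edge had 0 reads. RiboLace points lie to the right of all immunoprecipitate points for Scarna8 (501 and 543), Scarna10 and Gm25776, and at or near 0 for Snord17, Snora73a and Scarna17.

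In the comparisons of the immunoprecipitates with polysomes, all or nearly all rows tested were higher. By edgeR's quasi-likelihood test 347 of 347 rows tested were higher with SMN than on polysomes (21.4% of all 9119 features were called higher and 15.7% lower), and 417 of 422 were higher with IgG (14.3% of 16672 features higher and 11.9% lower); 0 were lower in either, also at an unadjusted p under 0.05 and with DESeq2. With 1 IgG library, the spread in that comparison comes from the 2 polysome libraries alone and is assumed for IgG (common dispersion 0.00227, against 0.0165 with SMN), so its counts of calls and p-values leave out the spread between immunoprecipitates. The median log2 differences were 4.91 and 5.27, against -0.08 and -0.15 over all features. With library totals the background medians were -0.52 and -0.62, the splits of all features changed from 1948 higher and 1429 lower to 1341 and 3524 with SMN and from 2382 and 1984 to 1772 and 4513 with IgG, and 347 and 415 of these rows were still called higher. Here too the filter kept rows through their high group; with no filter, 554 of 705 and 549 of 679 rows were higher and 0 lower. The 2 comparisons share the polysome libraries.

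Snord17, of 238 bases within Snx5, had 136, 363 and 243 CPM with SMN, 214 with IgG, 0 with RiboLace and 2.16 and 1.18 on polysomes; it was higher than polysomes by 7.60 with SMN (SE 0.46, adjusted p = 3.77e-09) and by 7.47 with IgG (SE 0.38, adjusted p = 2.22e-16, edgeR). Snora73b had 85.4, 268 and 169 CPM with SMN, 152 with IgG and 0.54 and 1.57 on polysomes, higher by 7.53 and 7.43 (adjusted p = 1.42e-08 and 1.13e-14, edgeR). Snora73a and Snora73b are near-identical in name and length, and their reads may be shared. Snora81 had 216, 363 and 346 CPM with SMN, 372 with IgG and 7.56 and 11.4 on polysomes (higher by 5.43 and 5.71). Snord118 stood at 85.4, 242 and 154 CPM with SMN and 220 with IgG against 10.8 and 7.06 (higher by 4.62 and 5.12). In each of these the IgG value lay within or above the range of the SMN values.

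Several rows had no polysome read. Mir1949, a snoRNA-class row with a microRNA name, had 4, 6 and 20 reads with SMN and 26 with IgG and was at least 59.5-fold and at least 118-fold higher than polysomes, with 3 counts over both polysome libraries as the floor. Gm25788 was at least 51.6-fold higher with SMN and at least 77.3-fold higher with IgG, and Snord96a at least 54.6-fold higher with IgG.

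The comparison of the SMN with the IgG immunoprecipitate asks what the antibody adds to unspecific recovery. With edgeR's quasi-likelihood test 0 of 394 rows tested were higher with SMN and 0 were lower, beside 0% of 7312 features higher and 0.0137% lower (1 feature). At an unadjusted p under 0.05 there were 0 higher and 3 lower, and DESeq2 and limma-voom also called 0 after adjustment. The 1 IgG library has no spread of its own, and that of the SMN libraries was assumed for it. The unadjusted count depended on that spread. Without SMN replicate 2, and also with all libraries in 1 fit, more of these rows were lower and 0 were higher. More of all features were then lower too. The median log2 difference of the rows was -0.45, against 0.06 over all features, and 65 of 394 were above 0. By class the median was -0.39 for 54 box C/D rows, -0.20 for 32 box H/ACA rows and -0.10 for 17 scaRNAs.

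Over 328 rows with at least 40 reads in these 4 libraries, IgG lay above all 3 SMN libraries in 199, below all 3 in 12 and between them in 117. Neither this order nor the next was counted over all features, so they have no background beside them. Outside the copy groups the numbers were 85, 8 and 70 of 163. There SMN replicate 2 was the highest SMN library in 97 of 163 rows and lay above IgG in 64, against 12 for replicate 1 and 35 for replicate 3. Without SMN replicate 2, the median log2 difference of the rows tested was -0.449, against 0.00945 over all features. The row nearest to passing as higher with SMN was Scarna8 at 1.70, with 1, 14 and 6 reads against 3, most of them in replicate 2; Gm25855 (23, 29 and 35 reads against 26) and Snora17 (6, 17 and 10 against 9) followed, and none passed. The rows with the smallest p among those lower with SMN, Gm25462, Gm25741 and Gm24528, all 79-base rows, had 38, 30 and 33 IgG reads against at most 23 in an SMN library, and none passed.

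Most snoRNAs lie within host genes, so each host's own row was set beside them. A host here is any gene whose RefSeq span holds the row. Strand was not checked, so a host need not be the gene from which the RNA is cut. Snord8 counts under both Chd8 and Gm26590, and Snord87 under both Mcmdc2 and Snhg6. Tex14, whose span holds Rnu3b1 to Rnu3b4, had 0 polysome reads on its own row and so no ratio. Of 51 other hosts, Snhg14 left out, with at least 100 snoRNA or scaRNA reads, the rows inside had a higher ratio over polysomes than the host row in 48 with SMN, 48 with IgG and 37 with RiboLace. The 100 reads were summed over all libraries, and most snoRNA and scaRNA reads came from the immunoprecipitates. Hosts thus entered largely through rows high there, which favours a higher ratio inside with SMN and IgG. Snhg14, whose rows held the most reads of any host (22158, copies included), went the other way. Its own row had ratios of 25.8 with SMN, 42.8 with IgG and 23.0 with RiboLace. The rows inside it had 22.1, 31.5 and 15.1. In the 29 hosts represented by a protein-coding transcript, the median ratio was 24.5 for the rows inside and 0.732 for the host with SMN, 30.4 and 0.740 with IgG, and 3.07 and 0.795 with RiboLace. Rpsa, a small-subunit ribosomal protein gene, shows it: Gm26448 and Snora62 within it had 435 CPM with SMN, 394 with IgG, 15.6 with RiboLace and 3.46 on polysomes, while the Rpsa row had 227, 195, 174 and 146. In Ncl, which codes for nucleolin, the 3 rows inside had 197, 270, 15.6 and 8.56 CPM and the host 162, 143, 479 and 388. In Gtf2a1 and Chd4, the rows inside rose with RiboLace, Gm25776 to 513 CPM and Gm23751 to 367, and the hosts stood at 84.0 and 178 CPM with RiboLace and 75.2 and 150 on polysomes. In the 22 hosts represented by another biotype the host rows also had higher ratios, with medians of 3.36, 3.27 and 1.17 beside 13.6, 15.6 and 4.97 for the rows inside; such rows can hold the intron and so the same reads.

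**Figure D5:**
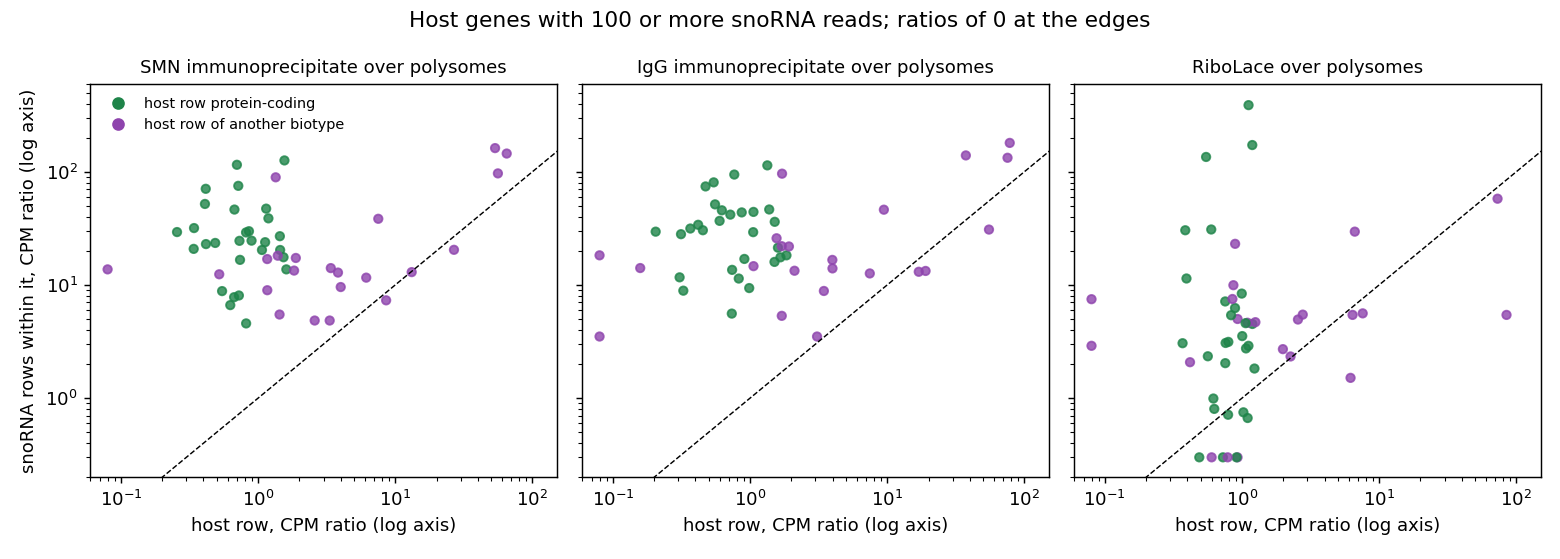
CPM ratio over polysomes of the snoRNA and scaRNA rows within a host gene (vertical) against that of the host row (horizontal), both on log axes, 1 point per host with 100 or more such reads and Snhg14 and Tex14 left out; the dashed line marks equal ratios, and ratios of 0 are drawn at the edges. With SMN and IgG 48 of 51 hosts lie above the line, and with RiboLace 37. The reads were summed over all libraries and came mostly from the immunoprecipitates, which favours points above the line with SMN and IgG.

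Noncoding snoRNA hosts from a chosen list were higher than polysomes in 10 of 10 tested with SMN, 10 of 10 with IgG and 4 of 5 with RiboLace (edgeR, adjusted p under 0.05), and 0 were lower, beside 21.4%, 14.3% and 5.59% of all features called higher. Gas5, a growth-arrest transcript hosting many box C/D snoRNAs, was higher by 4.34 with SMN and by 3.94 with RiboLace (adjusted p = 2.04e-09 and 2.05e-16, edgeR), and Snhg20 was higher by 8.91 with RiboLace (adjusted p = 1.23e-72). Rian, host of the Dlk1-Dio3 snoRNAs, was higher by 4.19 with SMN (adjusted p = 1.58e-08) and was at 1.14 with RiboLace (adjusted p = 0.381). Of coding hosts on the list, 14 of 31 tested were higher and 2 lower with SMN, beside 21.4% and 15.7% of all features, and 3 of 32 higher and 0 lower with RiboLace, beside 5.59% and 4.53%. The median log2 difference of the coding hosts from polysomes was 0.68 with SMN and 0.55 with the 1 IgG library.

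The mRNAs of the snoRNP proteins were read from the same fits over all features. Of the box C/D core proteins, 4 of 4 were tested with SMN against polysomes: Nop56 was higher (2.24, adjusted p = 4.07e-07, edgeR), its row being a retained intron, Nhp2l1 was lower (-1.15, adjusted p = 0.0266), and Fbl and Nop58 stood at -0.29 and 0.02. Of the box H/ACA core proteins, 2 of 4 could be tested, Nop10 being lower (-1.81, adjusted p = 0.00122) and Nhp2 at -0.87 (adjusted p = 0.0655). Of 9 assembly factors 0 were higher and 3 of 6 tested lower, namely Nufip1, Znhit6 and Rpap3, beside 15.7% of all features called lower. With SMN the median log2 differences were -0.14 for box C/D core proteins, -1.34 for box H/ACA core proteins and -0.96 for assembly factors. With the 1 IgG library they were -0.03, -1.19 and -0.74, with more genes kept in the latter lists. These levels were thus not seen with SMN alone. With RiboLace 0 of 8 core proteins passed in either direction. Lower than polysomes were 1 of 8 assembly factors tested and 1 of 4 Cajal body and cap factors, beside 4.53% of all features. These were Ruvbl2, an assembly ATPase, and Nolc1, the nucleolar and coiled-body phosphoprotein (-3.18, adjusted p = 0.0111, and -2.48, adjusted p = 0.000845, edgeR). Of other structured RNAs, 6 of 6 tested were higher than polysomes with SMN and 6 of 6 with RiboLace, beside 21.4% and 5.59% of all features. Among them was Rpph1, the RNA of RNase P, by 3.97 with SMN (adjusted p = 3.24e-05, edgeR) and by 5.55 with RiboLace. Between SMN and IgG, 0 genes of these lists were called.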

How the data were processed

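The authors deposited 1 table of unnormalized counts for 8 libraries with a row per Ensembl transcript, per the file headers. Trimmomatic 0.36, Bowtie2 2.2.6, SAMtools and the build GRCm38.p4 are named, per the submitters' processing notes; the sources used here do not say how multiply matching reads were counted. Each gene was represented by its transcript with the highest library-scaled total, and every snoRNA and scaRNA row was kept, 45578 features in all. Counts were tested with robust two-sided quasi-likelihood tests in edgeR 4.0.16 (R 4.3.3, TMM scaling, filterByExpr minimum count 10) on the groups compared, with Benjamini-Hochberg adjustment over all features and a threshold of 0.05. CPM is relative to the library's feature total. Copy groups and hosts came from RefSeq's gene order; 1298 rows matched RefSeq by symbol and 238 did not. Named rows were the 5 with the smallest adjusted p in each direction of each comparison (3 with the smallest p where none passed), the 10 most abundant per length and 36 of 39 listed RNAs of known role; others named were chosen after their values were seen. Members and lists were chosen with earlier results of these data known. Alternatives were DESeq2 1.42.0, limma-voom (limma 3.58.1), other scalings and filters, all libraries in 1 fit, all transcripts, a replicate block and each library left out; summing copies and summing transcripts were chosen after seeing the data. Replicates are labelled biological. Scripts were tested on simulated data.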

Additional observations from a re-analysis of the deposited data

How the results depend on the processing

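No named value that passed an adjusted p of 0.05 in the main or an alternative run had the opposite sign in the other. Changes of sign between runs that did not pass were not counted. Of the rows called with RiboLace against polysomes, 117 became 51 with limma-voom and 62 with the copy groups summed, and leaving out 1 library in turn gave 84 to 95. With SMN against polysomes 347 became 554 with no filter, 83 with a minimum count of 50 and 182 with the copies summed, and leaving out 1 library gave 357 to 436; with IgG against polysomes 417 became 237 with the copies summed, because fewer rows are then counted. Leaving out a polysome library beside the 1 IgG library leaves 1 against 1, and no test was run. With the replicate number as a block, 108 rows were higher with RiboLace and 346 with SMN. Same-numbered libraries did not deviate together (r = 0.0112 for RiboLace, 0.00781 and 0.0405 for SMN), so the numbers were not used as pairs; no paired analysis was possible because there is 1 IgG library in the other 2 comparisons. Shares of reads fell to 2.05% with SMN, 2.66% with IgG, 1.26% with RiboLace and 0.106% on polysomes over all transcripts, rose to 5.67%, 8.45%, 3.40% and 0.233% as a percentage of coding reads, and were 2.08%, 2.75%, 1.20% and 0.123% with each copy group counted as the mean of its rows. Without the most-read row, Rnu3b3, they were 5.12% with IgG and 0.200% on polysomes. With limma-voom 10 named rows were no longer called with RiboLace, namely Rnu3b1 to Rnu3b4, U3.2, Scarna13, Scarna3a, Snora65, Snora81 and Snord87 (log2 differences of 2.06 to 5.38, adjusted p = 0.0548 to 0.149), and with DESeq2 Rnu3a was called (adjusted p = 0.0151). Among named rows, Rnu3b2, Rnu3b4 and U3.2 were not called with RiboLace without its replicate 1 (adjusted p = 0.137, 0.0665 and 0.409, edgeR), and Scarna3a with IgG (1.90, adjusted p = 0.0292) was not called under 5 alternatives. The depth of RiboLace, with 1281 and 1609 reads on these rows, means that a level of up to 50.9 CPM can give 0 reads there, and rows called from 5 reads or fewer, such as Snord89, rest on little.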
